A study of Mus musculus with 12 samples.

Results

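The genes described here make and sense glucose in the liver. They are 9 of the 21936 genes in the deposited mouse table, chosen by name for their roles in hepatic glucose output: Pck1, Pcx, Fbp1, G6pc, Slc2a2, Pklr, Ppargc1a, Foxo1 and Irs2, each on a single entry of the table. They were measured by RNA-seq of whole liver in 9 libraries, 3 from each of 3 groups of male mice, C57BL/6 by their labels and C57BL/6J in the study's own text, that had all been made fibrotic with carbon tetrachloride (CCl4), given into the peritoneum at 1 mL/kg 2 times a week for 8 weeks after delivery at 6 weeks of age and 1 week of adaptation. LFG, the liver fibrosis group, was sacrificed when the CCl4 course ended. REG, the spontaneous regression group, then received 200 µL of PBS by tail vein 2 times a week for 4 weeks. hADMSCs-Exo received, on that schedule, 250 µg of exosome protein from human adipose-derived mesenchymal stem cells in the same volume. The mice of REG and hADMSCs-Exo were therefore older than those of LFG and had been off CCl4 for longer, so that age, withdrawal of CCl4 and the injections cannot be told apart in comparisons with LFG. Mice without CCl4 and mice given the stem cells themselves were not analysed here, and feeding state and hour of tissue collection are not given in the sources used here.

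Hepatic gluconeogenesis builds glucose from lactate, amino acids and glycerol when blood glucose is low. Glucagon acts through cAMP, CREB and the coactivator PGC-1α to raise transcription of the rate-setting enzymes, and FOXO1 acts on the same genes. Insulin, signalling through the insulin receptor, IRS1 and IRS2 and the kinase AKT, keeps FOXO1 out of the nucleus and so lowers that transcription. Glucose itself enters and leaves the hepatocyte through GLUT2, and pyruvate kinase closes glycolysis in the opposite direction. Blood glucose, insulin and glucagon were not analysed here.

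By role, the members fall into gluconeogenic enzymes, a transporter, a glycolytic enzyme and regulators. On GRCm38, the pyruvate carboxylase gene Pcx lies on the plus strand at chr19:4510472-4621752, and the phosphoenolpyruvate carboxykinase gene Pck1 on the plus strand at chr2:173153048-173159273. The fructose-1,6-bisphosphatase gene Fbp1 lies on the minus strand at chr13:62864753-62888282, and the glucose-6-phosphatase catalytic subunit gene G6pc on the plus strand at chr11:101367561-101377903. Slc2a2, which encodes GLUT2, is at chr3:28697903-28731359, and Pklr, the liver and red cell pyruvate kinase gene, at chr3:89136142-89146784, both on the plus strand. Ppargc1a, which encodes PGC-1α, is on the minus strand at chr5:51454250-51567726. Foxo1 is on the plus strand at chr3:52268336-52353221. Irs2 is on the minus strand at chr8:10984681-11008458. All 9 are protein-coding genes, and their spans match GENCODE. For 6 of the 9, every member except Pck1, Fbp1 and G6pc, the annotation places another gene within the span, such as Lrfn4 opposite Pcx and Hcn3 opposite Pklr. Whether the counting used strand is not stated in the sources used here, so reads from such opposite partners may be included.

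The DNA just upstream of the start of 4 members is shown because these genes had the lowest log2 fold changes in REG against LFG and are textbook targets of cAMP or insulin signalling. The sequences are from RefSeq (GRCm38.p6), in the direction of transcription, and end before the first transcribed base in either annotation. The capitals in Pck1 and Ppargc1a mark CGTCA, the reverse complement of the short cAMP response core TGACG. Those in G6pc mark the insulin response letters TGTTTTG, and those in Irs2 mark an E-box CACGTG followed by TGTTTTG.
Pck1: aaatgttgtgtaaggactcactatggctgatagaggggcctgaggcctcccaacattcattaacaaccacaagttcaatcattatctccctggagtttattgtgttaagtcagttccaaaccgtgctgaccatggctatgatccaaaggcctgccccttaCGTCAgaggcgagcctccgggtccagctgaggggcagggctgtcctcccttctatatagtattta
G6pc: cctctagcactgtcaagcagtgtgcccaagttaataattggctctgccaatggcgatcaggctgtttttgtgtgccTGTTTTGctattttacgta
Ppargc1a: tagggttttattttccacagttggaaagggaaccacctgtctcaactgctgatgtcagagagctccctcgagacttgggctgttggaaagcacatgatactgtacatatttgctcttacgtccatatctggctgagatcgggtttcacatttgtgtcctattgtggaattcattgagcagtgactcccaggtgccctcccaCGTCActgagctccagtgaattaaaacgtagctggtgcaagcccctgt
Irs2: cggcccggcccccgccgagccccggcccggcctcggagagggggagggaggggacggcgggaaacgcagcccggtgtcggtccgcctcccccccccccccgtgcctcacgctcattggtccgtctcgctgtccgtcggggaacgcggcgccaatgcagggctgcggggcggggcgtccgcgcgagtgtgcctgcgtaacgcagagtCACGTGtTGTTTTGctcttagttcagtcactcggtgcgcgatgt
The Pck1 stretch is chr2:173152823-173153047 on the plus strand and that of G6pc is chr11:101367466-101367560 on the plus strand. The Ppargc1a stretch is chr5:51567727-51567975 and that of Irs2 is chr8:11008930-11009179, both on the minus strand. In a search of the 250 bases before each start, on both strands, TGACG stood in 2 of the 9 members and in 17.8% of all 32851 promoters, and TGTTTTG in 2 members and in 5.56% of all promoters. CACGTG was found in Irs2 and, of the other members, in Pcx, against 6.02% of all promoters. No member held the full cAMP response element TGACGTCA (1.55% of all promoters) or the glucocorticoid response letters AGAACA (16.1%). Nor did any hold GTAAACA (3.17%), the only form searched under the name FOXO. TGTTTTG, the reverse complement of CAAAACA, was counted apart from it as the insulin response letters, so the search does not show that these promoters lack FOXO sites. These are matches of letters in a short window and were not tested as sites.

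The 9 libraries held between 13837445 and 19840917 counts assigned to genes. Between 12337 and 12517 genes entered the test of each comparison. LFG 3 stood apart from the other LFG libraries: its log2 expression correlated with them at r = 0.834 and 0.874, against 0.965 between LFG 1 and LFG 2. Its markers also differed, with summed stellate cell and myofibroblast markers at 30.9 CPM, against 932 and 567 in LFG 1 and LFG 2, and summed pericentral hepatocyte markers at 17877 CPM, against 1712 and 3862. Summed over the 9 genes found, the hepatocyte markers were high in all libraries. They lay at 88554 to 154741 CPM in LFG, 168341 to 175066 CPM in REG and 122189 to 139891 CPM in hADMSCs-Exo, so that REG had the highest sums. Most of each sum was Alb, at 64219 to 108390, 132067 to 139469 and 90020 to 106924 CPM in these groups. The mean log2 deviation of the 9 genes from their own means overlapped, at -0.46 to 0.21, 0.08 to 0.21 and -0.07 to 0.12. Because LFG 3 stood apart, the members' fold changes against LFG are shown with and without it, and those of other genes only in part. In these bulk libraries fewer cells of a type and less RNA per cell cannot be told apart.

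Levels of different genes are compared here only per length, as FPKM (fragments scaled to gene length and library size), for which the medians over the 9 libraries ran from 1.58 to 734. The enzymes headed the order, with Fbp1 at a median of 734 FPKM (range 335 to 1002) and Pck1 at 673 FPKM (263 to 1184). Pcx followed at 107 FPKM and G6pc at 85.4 FPKM, the latter with a range of 12.3 to 422. Slc2a2 had a median of 51.2 FPKM and Pklr of 36.7 FPKM. The regulators were far lower, with Foxo1 at 3.39, Ppargc1a at 1.78 and Irs2 at 1.58 FPKM. Only the steps from Pck1 to Pcx and from Pklr to Foxo1 separated neighbours whose ranges did not overlap. Within groups the order of the enzymes moved: Pck1 had the highest median in LFG (1055 FPKM) and in hADMSCs-Exo (786 FPKM), whereas in REG Fbp1 lay above it, at 717 to 869 FPKM against 263 to 444 FPKM. G6pc lay above Pcx in LFG, without overlap, and below Pcx, Slc2a2 and Pklr by its median in REG. The remaining values are CPM (counts scaled to library size) adjusted by TMM, a correction for library composition, and compare 1 gene between libraries.

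**Figure D1:**
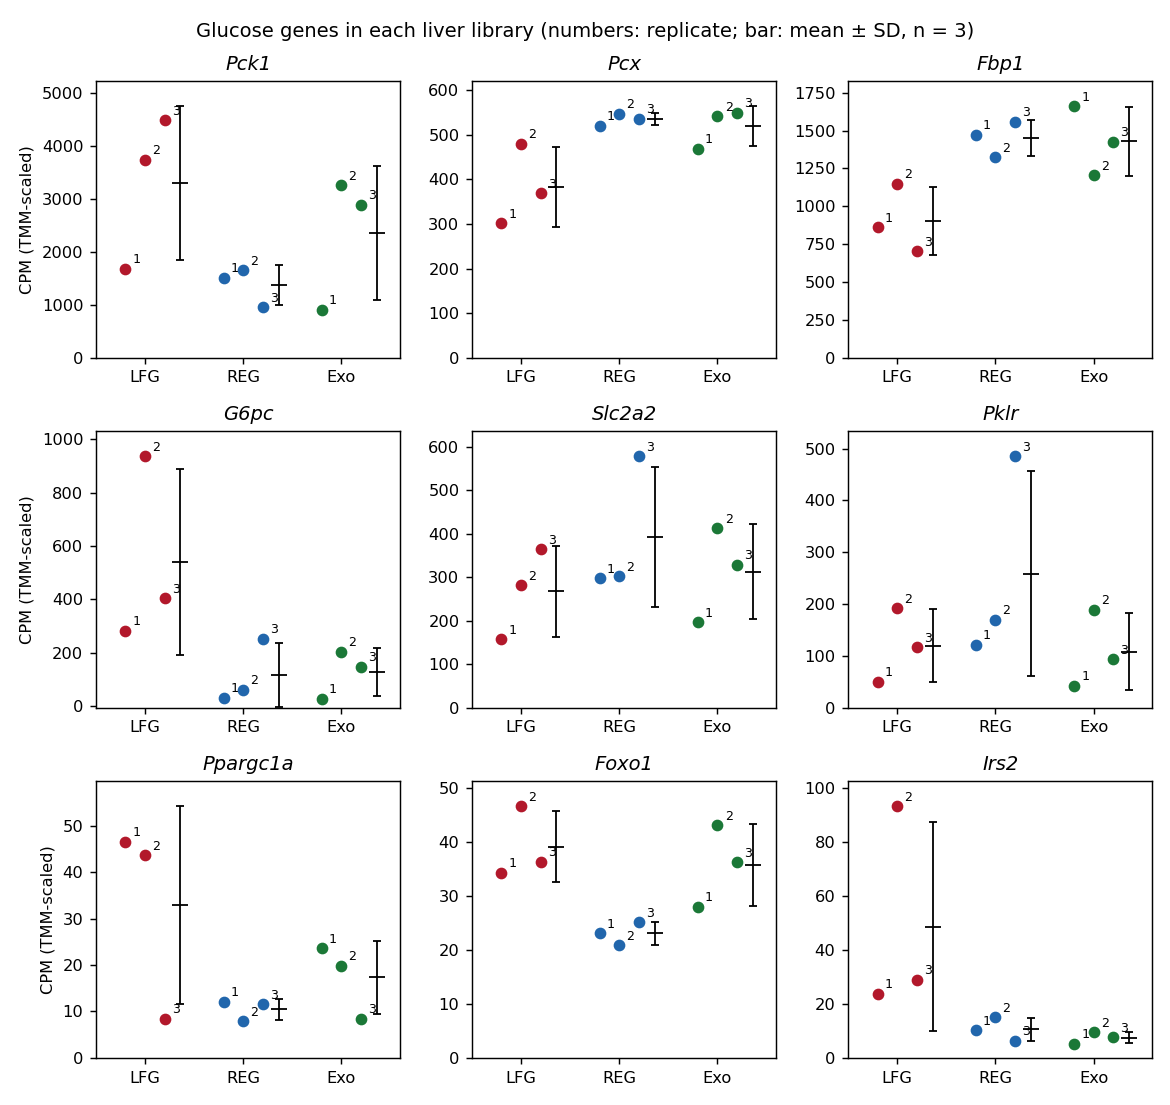
Each panel plots one gene, with CPM (TMM-scaled) on the vertical axis and the groups LFG, REG and hADMSCs-Exo (Exo) on the horizontal axis; numbered points are the replicates and the black bar is the mean ± SD (n = 3). Irs2 and G6pc were higher in every LFG library than in every REG and hADMSCs-Exo library, and Ppargc1a in LFG 3 sat at 8.40 CPM beside the REG libraries. The lower SD bar of G6pc in REG reaches below 0 because its SD, 120 CPM, exceeded its mean, 116 CPM.

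Pck1, whose product turns oxaloacetate into phosphoenolpyruvate, was read at 1676, 3732 and 4477 CPM in LFG 1, 2 and 3. REG gave 1508, 1651 and 950.5 CPM, and hADMSCs-Exo gave 908, 3256 and 2884 CPM. All 3 REG libraries lay below all 3 LFG libraries, although REG 2 and LFG 1 nearly touched, whereas hADMSCs-Exo overlapped both groups, with 1 library below all of REG and LFG. Pck1 was lower in REG than in LFG by a log2 fold change of -1.26 (SE 0.44) on edgeR's quasi-likelihood test, which did not pass adjustment over all genes (adjusted p = 0.392). It was -0.49 (SE 0.58) in hADMSCs-Exo against LFG and 0.78 (SE 0.44) in hADMSCs-Exo against REG, with edgeR adjusted p of 0.920 and 0.582. The value against LFG was -0.09 without hADMSCs-Exo 1, -0.19 without LFG 3 and -0.81 without LFG 1. That against REG was 1.16 without hADMSCs-Exo 1 (edgeR adjusted p = 0.238) and 0.47 without hADMSCs-Exo 2.

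G6pc, which carries out the last step to free glucose, stood at 282, 936 and 404 CPM in LFG. REG libraries held 31.8, 62.6 and 253 CPM and hADMSCs-Exo libraries 29.0, 204 and 148 CPM. Every LFG library was above every library of the other groups, but LFG 1 and REG 3 were close, and the spread within REG was 7.96-fold and within hADMSCs-Exo 7.05-fold. The means were 541 ± 348, 116 ± 120 and 127 ± 89.6 CPM (SD, n = 3). The log2 fold change was -2.21 (SE 0.84) in REG and -2.10 (SE 0.76) in hADMSCs-Exo against LFG, and edgeR's adjusted p was 0.410 and 0.805. Single libraries moved these values: without LFG 2 they were -1.56 and -1.44, and without REG 3 the value for REG was -3.47. Between hADMSCs-Exo and REG it was 0.14 (SE 0.82), a value that leaving out REG 3 turned to 1.43 and leaving out hADMSCs-Exo 2 to -0.38.

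The 2 other gluconeogenic enzymes ran the opposite way. Fbp1, which removes a phosphate from fructose-1,6-bisphosphate, was at 860.2, 1148 and 705 CPM in LFG, at 1472, 1323 and 1557 CPM in REG and at 1661, 1204 and 1426 CPM in hADMSCs-Exo. Its LFG libraries lay below all the others, by a log2 fold change of 0.70 (SE 0.27) for REG and 0.65 (SE 0.30) for hADMSCs-Exo. Pcx, which makes oxaloacetate from pyruvate, was at 302, 479.7 and 369 CPM in LFG and at 521, 548 and 536 CPM in REG, where replicates agreed to within 1.05-fold. In hADMSCs-Exo it was at 469, 541 and 549.6 CPM, overlapping LFG 2. The Pcx log2 fold changes were 0.49 (SE 0.24) in REG and 0.43 (SE 0.25) in hADMSCs-Exo against LFG. On edgeR's test the adjusted p for Fbp1 was 0.422 and 0.805 and that for Pcx 0.486 and 0.833. Scaled by library totals alone, which lowers the median of all genes in REG against LFG to -0.27, Fbp1 was 0.46 and Pcx 0.30, and the groups overlapped for both.

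Slc2a2 was at 158, 281 and 365 CPM in LFG, 298, 302 and 578 CPM in REG and 197, 413 and 328 CPM in hADMSCs-Exo. The groups overlapped throughout, with log2 fold changes of 0.56 (SE 0.41) for REG against LFG, 0.22 (SE 0.40) for hADMSCs-Exo against LFG and -0.33 for hADMSCs-Exo against REG. The first was 0.21 without REG 3, 0.29 without LFG 1 and 0.88 without LFG 3, and the last ran from -0.58 to 0.06 with 1 library left out. Pklr showed a wider spread, with 50.6, 192 and 117 CPM in LFG, 122, 169.9 and 485 CPM in REG and 42.4, 189 and 93.3 CPM in hADMSCs-Exo. REG 3 alone accounted for the high REG mean: Pklr was 1.12 (SE 0.65) higher on the log2 scale in REG than in LFG, and 0.34 without that library. In hADMSCs-Exo against REG Pklr was at -1.25 (SE 0.62, edgeR adjusted p = 0.537). This became -0.43 without REG 3, -1.59 without REG 1 and -1.93 without hADMSCs-Exo 2.

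Ppargc1a was at 46.5, 43.7 and 8.40 CPM in LFG, and so split LFG 3 from the other 2 libraries of its group. It was at 12.1, 7.85 and 11.5 CPM in REG and at 23.6, 19.9 and 8.44 CPM in hADMSCs-Exo, whose replicates 1 and 2 lay between REG and the high LFG libraries. The log2 fold change was -1.63 (SE 0.59) in REG and -0.94 (SE 0.66) in hADMSCs-Exo against LFG, with edgeR adjusted p of 0.401 and 0.862. The value for hADMSCs-Exo was -0.60 without LFG 1 or without hADMSCs-Exo 3, and -1.37 without LFG 3. hADMSCs-Exo against REG gave 0.72 (SE 0.36, edgeR adjusted p = 0.541), which was 0.43 without hADMSCs-Exo 1 and 1.05 without hADMSCs-Exo 3.

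Foxo1 had the tightest replicates of the regulators. It was at 34.3, 46.6 and 36.4 CPM in LFG, at 23.2, 20.9 and 25.2 CPM in REG and at 28.0, 43.1 and 36.3 CPM in hADMSCs-Exo. REG was thus below both other groups without overlap, while LFG and hADMSCs-Exo shared a range. The log2 fold change was -0.75 (SE 0.19) for REG against LFG, 0.63 (SE 0.19) for hADMSCs-Exo against REG and -0.14 (SE 0.23) for hADMSCs-Exo against LFG, with edgeR adjusted p of 0.309, 0.407 and 0.948. The first and second of these share the REG libraries and are not independent.

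Irs2, whose product carries the insulin signal from the receptor towards AKT, was at 23.9, 93.3 and 29.1 CPM in LFG. It was at 10.2, 15.1 and 6.42 CPM in REG and at 5.27, 9.58 and 7.75 CPM in hADMSCs-Exo. All LFG libraries exceeded all others, LFG 2 by far the most, and the means were 48.7 ± 38.7, 10.6 ± 4.35 and 7.53 ± 2.16 CPM (SD, n = 3). The log2 fold change was -2.19 (SE 0.59) in REG and -2.70 (SE 0.58) in hADMSCs-Exo against LFG, and edgeR adjusted p was 0.323 and 0.805. Without LFG 2 these were -1.32 and -1.82. hADMSCs-Exo and REG overlapped, at -0.49 (SE 0.34, edgeR adjusted p = 0.648), which ran from -0.75 without REG 3 to -0.16 without REG 2 when single libraries were left out.

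**Figure D2:**
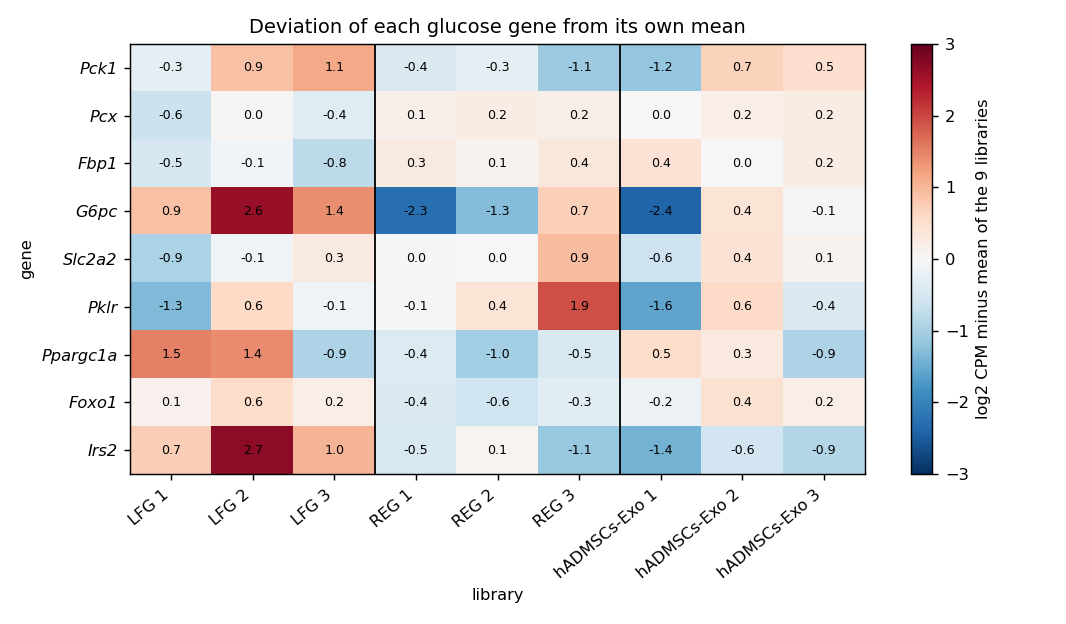
Each cell gives, for 1 gene (rows) in 1 library (columns), log2 CPM minus that gene's mean over the 9 libraries, on a colour scale from -3 (blue) to 3 (red); black lines separate LFG, REG and hADMSCs-Exo. G6pc and Irs2 had their highest deviations in LFG 2, while Fbp1 and Pcx stayed within 0.8 of their means in every library.

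REG was compared with LFG to show how the livers stood after 4 weeks of recovery without treatment. The members differed in both directions: Pck1, G6pc, Ppargc1a, Foxo1 and Irs2 were lower in REG, and Fbp1, Pcx, Slc2a2 and Pklr were higher, with a median log2 fold change of -0.75, beside -0.07 over all genes tested. None of the 9 members was called at an adjusted p under 0.05 with a log2 fold change of at least 1, nor was any other gene (0% of 12517). At an unadjusted p under 0.05 edgeR marked 6 of 9, beside 11.3% of all genes. Of these, 5 were lower (Pck1, G6pc, Ppargc1a, Foxo1, Irs2; 6.70% of all genes) and Fbp1 was higher (4.62% of all genes). The groups did not overlap for 6 members, beside 18.9% of all genes: Pck1, G6pc, Foxo1 and Irs2 were lower (10.0% of all genes) and Fbp1 and Pcx were higher (8.91% of all genes). With 3 against 3 libraries an exact two-sided permutation test cannot go below p = 0.1, its value for each of these 6. The 6 members with an unadjusted p under 0.05 depended on single libraries. Without REG 1 or without REG 2 they were 2 (Foxo1 and Irs2 both times), beside 6.22% and 4.51% of all genes, and without REG 3 they were 3, beside 1037 of 12961 genes. Without LFG 1 or without LFG 2 they were 4, beside 8.96% and 7.13% of all genes, and without LFG 3 they were 7.

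Without LFG 3, edgeR placed 3 of the 9 members at an adjusted p under 0.05 in REG against LFG, beside 16.8% of all genes tested. Ppargc1a, Irs2 and Foxo1 fell, with log2 fold changes of -2.06 (adjusted p = 0.0104), -2.42 (adjusted p = 0.0301) and -0.77 (adjusted p = 0.0347). Ppargc1a and Irs2 also met the fold limit, 2 of 9 beside 10.7% of all genes. G6pc at -2.35 and Pck1 at -0.93 did not pass, with edgeR adjusted p of 0.0841 and 0.130. The 7 members with an unadjusted p under 0.05 in this fit compare with 37.3% of all genes. Setting LFG 3 aside also leaves LFG with the libraries richest in the 10 stellate cell and myofibroblast markers, at 567 and 932 CPM summed against 108 to 181 CPM in REG, and the part of this in the results was not tested. On all 6 libraries, limma voom with quality weights called 4 members (Pck1, G6pc, Ppargc1a and Irs2), beside 10.3% of all genes, and DESeq2 called Irs2 alone, beside 1.91%.

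**Figure D3:**
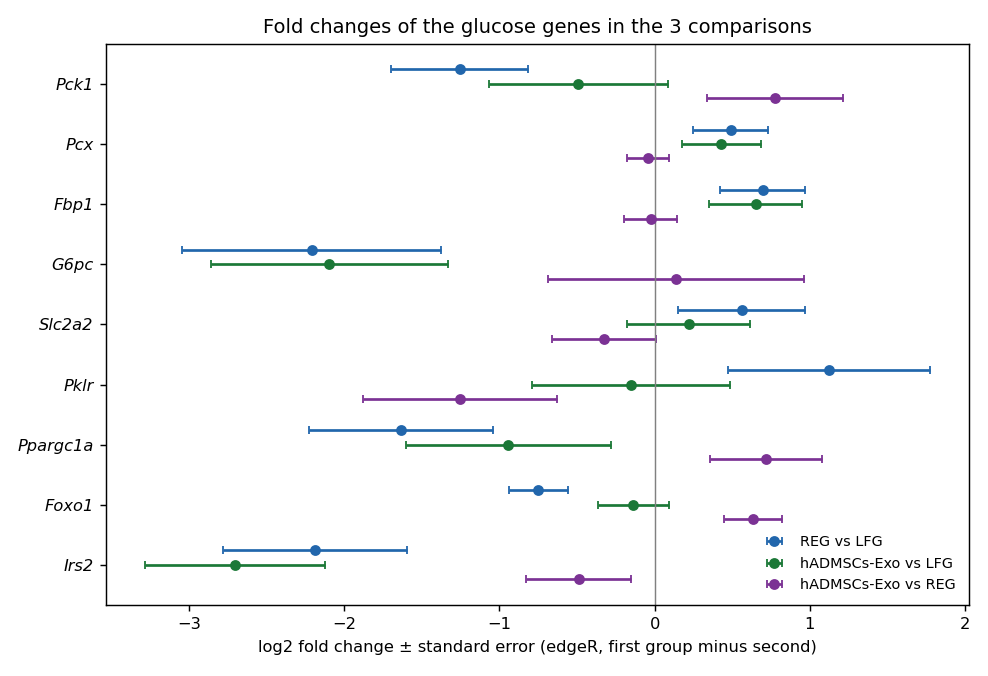
The horizontal axis is the edgeR log2 fold change ± standard error (first group minus second) and each row is 1 gene, with a colour for each of the 3 comparisons (n = 3 libraries a group). Against LFG, G6pc and Irs2 lay beyond -2 in both comparisons, and Fbp1 and Pcx lay above 0 in both; these comparisons share the LFG libraries.

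hADMSCs-Exo was set against LFG to describe the treated livers relative to the end of CCl4. G6pc and Irs2 were lower, Fbp1 and Pcx were 0.65 and 0.43 higher on the log2 scale, Ppargc1a was at -0.94, and Pck1, Slc2a2, Pklr and Foxo1 were within 0.5 of no difference, with a median over the members of -0.15 beside -0.06 over all genes. No member and no other gene was called (0% of 12489). G6pc and Irs2 had an unadjusted edgeR p under 0.05, so 2 of 9 members were marked, both lower, beside 5.98% of all genes in either direction, 3.68% lower and 2.30% higher. The groups did not overlap for 3 members, beside 12.3% of all genes: G6pc and Irs2 were lower (5.93%) and Fbp1 was higher (6.35%), the last with overlap once scaled by library totals alone. Without hADMSCs-Exo 3 the count of 2 became 1, Irs2, and without LFG 2 it stayed at 2 but with Fbp1, higher, in place of G6pc. Without LFG 3, 3 members had an unadjusted p under 0.05, beside 28.5% of all genes, and Irs2 alone passed edgeR's adjusted test and fell, with a log2 fold change of -2.94 (adjusted p = 0.0278). That made 1 of 9, beside 7.09% of all genes at that adjusted p and 5.97% with the fold limit. DESeq2 on all 6 libraries also called Irs2, at -2.69, beside 0.512% of the genes with an adjusted p.

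**Figure D4:**
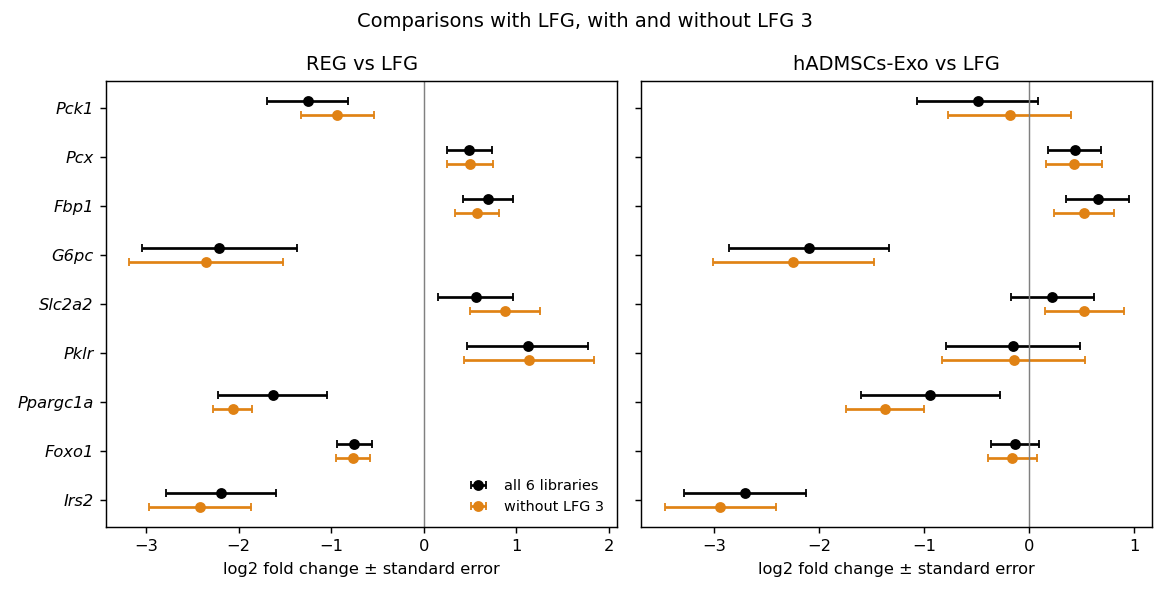
Each panel gives the edgeR log2 fold change ± standard error of the 9 genes for REG (left) or hADMSCs-Exo (right) against LFG, in black for all 6 libraries and in orange without LFG 3. Leaving out LFG 3 moved Ppargc1a from -1.63 to -2.06 (left) and from -0.94 to -1.37 (right), and kept the direction of every gene.

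hADMSCs-Exo was set against REG to describe the injected exosomes relative to PBS at the same age and time off CCl4. Foxo1, Pck1 and Ppargc1a were higher in hADMSCs-Exo (0.63, 0.78 and 0.72 on the log2 scale), Pklr, Irs2 and Slc2a2 were lower (-1.25, -0.49 and -0.33), and Fbp1, Pcx and G6pc lay at -0.02, -0.04 and 0.14. The median over the members was -0.02, beside 0.01 over all genes. No member was called, and 1 gene of 12337 was (0.00811%). At an unadjusted p under 0.05 edgeR marked Foxo1 alone, 1 of 9 beside 10.0% of all genes (5.34% higher, 4.69% lower). Foxo1 was also the only member whose groups did not overlap, beside 15.5% of all genes (8.07% higher, 7.47% lower). These shares are near those of all genes. The marked count was 2 without REG 1 or without hADMSCs-Exo 2 (Pklr joined), beside 10.6% and 8.59% of all genes. It was also 2 without REG 3 (Irs2 joined, 10.7%), without hADMSCs-Exo 1 (Pck1, 10.1%) and without hADMSCs-Exo 3 (Ppargc1a, 9.57%), and DESeq2 on all 6 libraries marked 3 (Pck1, Ppargc1a and Foxo1, all higher), beside 9.70%. For Fbp1 and Pcx the sign turned with the scaling, to 0.04 and 0.02 under library totals alone.

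Of 107 other genes in 5 lists of the pathway, 105 were tested in each comparison, and none was called. In REG against LFG, 20 had an unadjusted edgeR p under 0.05 (19.0%, beside 11.3% of all genes), 6 higher and 14 lower. Among 23 gluconeogenic and glucose output enzymes, 3 were so marked: Gapdh was 0.69 higher on the log2 scale, while Gpd1, which links glycerol to gluconeogenesis, was at -0.97 and the tyrosine aminotransferase gene Tat at -1.12. Of 18 glycolytic and fructose enzymes 5 were marked, among them the pyruvate dehydrogenase kinases Pdk1 (1.07) and Pdk2 (0.79), and Pfkfb3 (-1.85) and Pfkfb2 (-1.19), which make and break the glycolytic activator fructose-2,6-bisphosphate. In glycogen metabolism 2 of 15 were marked, the phosphorylase kinase subunit Phka2 (0.49) and the glycogen-targeting phosphatase subunit Ppp1r3g (-4.07), whose LFG libraries ran from 8.84 to 169 CPM. Of 23 transcriptional regulators 4 were marked, with the insulin-induced lipogenic regulator Srebf1 at 1.38, Cebpb at -1.23 and Atf3 at -1.19. Of 26 genes of insulin and glucagon signalling 6 were marked, with the kinase Akt2 at 0.55, Gsk3b at -0.72 and the cAMP-induced kinase Sik1 at -1.91.

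In hADMSCs-Exo against LFG, 9 of the 105 were marked (8.57%, beside 5.98% of all genes), 2 higher and 7 lower. The higher genes were the mitochondrial pyruvate carrier Mpc1 (0.66) and the glycogen-targeting subunit Ppp1r3b (1.20). The lower genes were Gpd1 (-1.01), Tkfc (-0.88), Pfkfb3 (-1.12), Ppp1r3g (-3.74), the glucose-responsive Txnip (-1.40), Creb1 (-0.59) and Sik1 (-1.29). In hADMSCs-Exo against REG, 16 were marked (15.2%, beside 10.0%), 7 higher and 9 lower. Glycerol kinase Gk was at 95.9 to 98.0 CPM in hADMSCs-Exo against 48.9 to 70.6 CPM in REG (log2 fold change 0.64). Pfkfb2 (0.85) and Pdk4 (0.89) were higher, while Pdhb (-0.53) and the glycogen phosphorylase Pygl (-0.80) were lower. Cebpb (0.93) and Hnf4a (0.43) were higher, and Srebf1 lay at 216 to 244 CPM against 329 to 559.7 CPM (-0.99). Of the signalling genes, Adcy6 was at 0.72, the AKT-binding Trib3 at -1.05 and Grb14 at -0.36.

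Without LFG 3, 18 of 106 of these genes passed edgeR's adjusted p of 0.05 in REG against LFG (17.0%, beside 16.8% of all genes), 9 in each direction, and 8 of 105 in hADMSCs-Exo against LFG (7.62%, beside 7.09%), 4 in each direction. The following were chosen after their values were seen. In REG, Igfbp1, a classic insulin-repressed gene, fell to a log2 fold change of -4.55 (adjusted p = 0.0159), Pdk4 to -3.62 (adjusted p = 0.00855) and Grb10, an adaptor that restrains insulin signalling, to -1.56 (adjusted p = 0.0178). The glucagon receptor gene Gcgr rose by 1.29 (adjusted p = 0.0249), the liver glycogen synthase gene Gys2 by 1.42 (adjusted p = 0.0191) and Srebf1 by 1.83 (adjusted p = 0.0154). With LFG 3 included, the mean levels in LFG and REG were 199 and 212 CPM for Gcgr and 249 and 326 CPM for Gys2. They were 742 and 43.8 CPM for Igfbp1, 19.1 and 2.20 CPM for Pdk4, and 6.76 and 3.08 CPM for Grb10. In hADMSCs-Exo, Gcgr rose by 1.28 (adjusted p = 0.0435) and Gys2 by 1.52 (adjusted p = 0.0278), and Pdk4 fell to -2.76 (adjusted p = 0.00952). The hADMSCs-Exo means were 215 CPM for Gcgr, 357 CPM for Gys2 and 4.10 CPM for Pdk4, beside 199, 249 and 19.1 CPM over all LFG libraries. LFG 3 lay outside the range of LFG 1 and LFG 2 in each of Igfbp1 (95.8 against 289 and 1842 CPM), Grb10 (1.52 against 9.47 and 9.28 CPM), Srebf1 (269 against 118 and 149.7 CPM), Gcgr (417 against 66.0 and 113 CPM), Gys2 (496 against 97.2 and 153 CPM) and Pdk4 (1.07 against 22.8 and 33.4 CPM).

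Genes with known responses to feeding were read beside the members, since the members respond to it too. Over 15 genes raised by fasting, the mean log2 deviation from their means was 0.14 to 0.41 in LFG, -0.22 to -0.15 in REG and -0.52 to 0.21 in hADMSCs-Exo, but the summed level overlapped between LFG (5136 to 9773 CPM) and REG (4747 to 5348 CPM). Over 11 genes raised by feeding, the deviation was -0.90 to 0.33 in LFG, 0.01 to 1.11 in REG and -0.50 to 0.33 in hADMSCs-Exo, with REG 3, the library with the highest Pklr, at the top. Over 11 acute phase and stress genes the deviation was 0.54 to 0.79 in LFG, -1.17 to -0.17 in REG and -0.54 to 0.85 in hADMSCs-Exo, but their summed level overlapped between LFG (4004 to 8268 CPM) and REG (5070.4 to 6566 CPM). Replicate 3 of hADMSCs-Exo stood apart, with a sum of 20055 CPM against 5076 and 6713 CPM in replicates 1 and 2. Summed stellate cell and myofibroblast markers were 30.9 to 932 CPM in LFG, 108 to 181 CPM in REG and 37.1 to 91.6 CPM in hADMSCs-Exo. The 10 periportal hepatocyte markers, of the zone where gluconeogenesis is most active, summed to 4048 to 7441 CPM in LFG, below all libraries of REG (8638 to 10416 CPM) and hADMSCs-Exo (7906 to 8895 CPM). The 10 pericentral markers, of the opposite zone, summed to 7062 to 8524 CPM in REG and 9520 to 13777 CPM in hADMSCs-Exo, without overlap. In LFG they ran from 1712 to 17877 CPM. Of 15 circadian clock genes tested in REG against LFG, 5 had an unadjusted edgeR p under 0.05 (beside 11.3% of all genes), 1 higher and 4 lower. Without LFG 3, 7 of 15 passed edgeR's adjusted p of 0.05 (beside 16.8%), 3 higher and 4 lower. In hADMSCs-Exo against REG, 5 of 15 had an unadjusted edgeR p under 0.05 (beside 10.0%), 3 higher and 2 lower. The mean log2 deviation over the 16 clock genes was higher in every hADMSCs-Exo library (0.00 to 0.19) than in REG (-0.15 to -0.11). Their summed level overlapped, at 625 to 828 CPM in hADMSCs-Exo and 706 to 827 CPM in REG. Since clock genes differed in both directions, this mean is not a measure of clock phase. The part of feeding, hour of collection, stress and cell composition in the members' values was not tested.

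**Figure D5:**
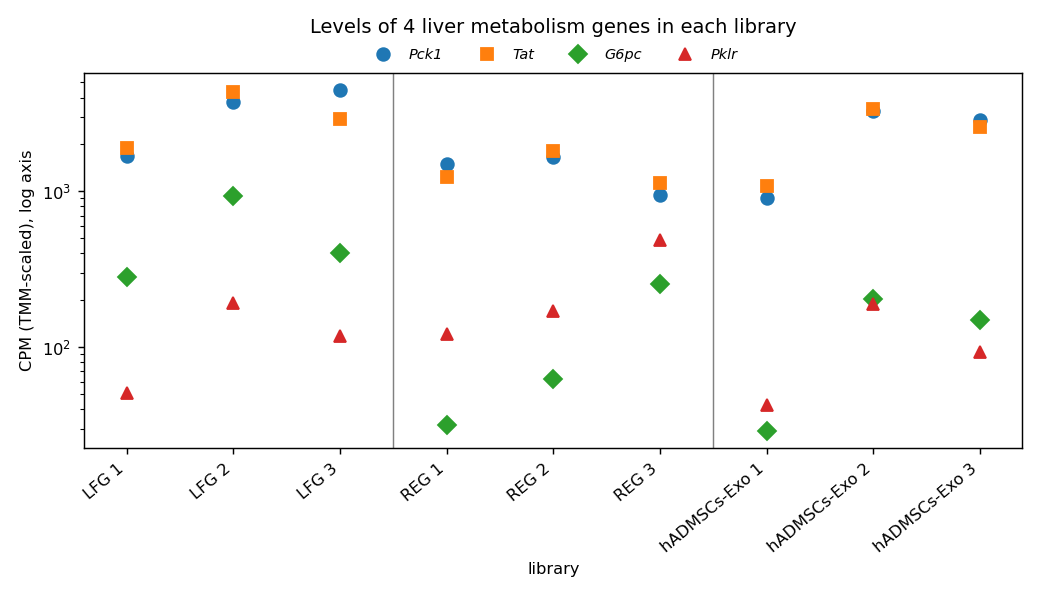
The vertical axis is CPM (TMM-scaled) on a log scale and the horizontal axis lists the 9 libraries; symbols mark Pck1, Tat, G6pc and Pklr, whose levels are not comparable with each other on this scale, and grey lines separate the groups. Tat, like Pck1, was lowest in hADMSCs-Exo 1, and G6pc ran from 29.0 to 936 CPM and Pklr from 42.4 to 485 CPM.

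For 4 members the genes with the most similar pattern over the 9 libraries were sought by the root mean square difference of log2 deviations, as a description. For Pck1 the nearest was Tat (0.28, beside 0.80 for Pck1's own spread about its mean), followed by Irf2bp2 (0.31) and Pnrc1 (0.33). Tat, an amino acid catabolic enzyme, was at 1889, 4348 and 2931 CPM in LFG, 1229, 1823 and 1130 CPM in REG and 1080.2, 3393 and 2579 CPM in hADMSCs-Exo. For Ppargc1a the nearest were the laminin gene Lama5 (0.25, beside 0.94), the interferon-induced Oas2 (0.34) and Ulbp1 (0.35). For Irs2 they were Rasd1 (0.53, beside 1.22), Calml4 (0.55) and the activin antagonist gene Fst (0.55), and for G6pc they were Ttll8 (0.65, beside 1.59), Hspa1b (0.76) and Hsph1 (0.82). Hspa1b and Hsph1 encode heat shock proteins; Hspa1b was at 41.8 to 72.4 CPM in LFG, 3.35 to 12.7 CPM in REG and 7.40 to 15.8 CPM in hADMSCs-Exo. Ttll8 never exceeded 3.69 CPM, so its likeness to G6pc rests on few counts. The same limit holds for Ulbp1 (at most 2.95 CPM), Calml4 (3.02 CPM) and Rasd1 (4.64 CPM).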

How the data were processed

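Total RNA of whole liver was sequenced on an Illumina NovaSeq instrument, and 9 libraries (3 each of LFG, REG and hADMSCs-Exo) of the 12 samples in the series were used. The samples were labelled as separate livers by number alone, so p-values measure the spread between these samples. The submitters' processing notes name cutadapt 1.15, HISAT2 2.0.5, HTSeq 0.9.1, DESeq 1.30.0 and the build GRCm38, and the authors deposited raw read counts per gene with FPKM values for each library. The deposited FPKM followed from the counts, total and gene length to a relative difference of 9.19e-07. The hADMSCs-Exo libraries were matched to their columns by the column names, which are not the sample titles.

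Counts were tested with edgeR 4.0.16 (R 4.3.3): TMM factors, the filterByExpr filter, the quasi-likelihood F test over the 6 libraries of each comparison, two-sided, with Benjamini-Hochberg adjustment over all genes tested. Genes were called where the adjusted p was below 0.05 and the log2 fold change was 1 or more in size, and standard errors were taken from the fold change and its F statistic. CPM were scaled with TMM factors of all 9 libraries, and log2 CPM used a prior count of 2. The fit was tested on simulated data first. Total counts were 13837445 to 19840917 per library, and standard errors cover the spread between libraries as well as counting error. The 3 comparisons share groups and are not independent.

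The 9 members, the pathway and marker lists and the tests were chosen with earlier results of these data known. All members are named in every comparison, and from each pathway list at most 2 genes a direction, by smallest unadjusted p under 0.05. Names borne by more than 1 entry (31 names) were left out of the lists, and some genes that the rule names are not reported here. Alternatives were RLE factors, library totals, DESeq2 1.42.0, limma 3.58.1 voom with quality weights, other count filters, 1 fit over all libraries, a replicate block and each library left out. Deviations from group means correlated between samples of the same number at r = 0.101, 0.308 and 0.180 for hADMSCs-Exo and LFG. The labels do not tie these numbers, so the main tests did not pair samples, and the replicate block is an alternative only. For the other comparisons a number had no such consistent relation.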

Additional observations from a re-analysis of the deposited data

How the results depend on the processing

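With the main test 0 of 9 members were called in each comparison. An unadjusted p under 0.05 with no fold limit marked 6 members for REG against LFG, 2 when hADMSCs-Exo was set against LFG, and 1 when it was set against REG. DESeq2 called 1 (Irs2) in each comparison with LFG, with adjusted p of 0.00270 for hADMSCs-Exo and 0.0175 for REG, and limma voom with quality weights called 4 for REG against LFG. Leaving out 1 library at a time gave 0 to 2 called members for REG against LFG and 0 to 1 when hADMSCs-Exo was set against LFG, the higher value without LFG 3 both times, and 0 for hADMSCs-Exo against REG. With the replicate block 0 members were called in all 3 comparisons. The block left the count at an unadjusted p under 0.05 at 2 for hADMSCs-Exo against LFG. The block moved the count from 6 to 3 for REG against LFG (beside 8.61% of all genes, from 11.3%), where the same-number r was 0.415, -0.20 and 0.305. For hADMSCs-Exo against REG the count rose to 2 from 1 (beside 9.52%, from 10.0%), with r of 0.159, 0.00938 and 0.0336. In every comparison the labels give samples only a shared number.

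Of 378 member fold changes under alternatives, 362 kept their direction. The values that turned follow. In hADMSCs-Exo against REG, library totals alone gave Pcx 0.018 and Fbp1 0.041, and limma voom gave Fbp1 0.0033. With 1 library left out, log2 fold changes ran from -0.086 to 0.026 for Pcx, -0.14 to 0.086 for Fbp1, -0.38 to 1.43 for G6pc and -0.58 to 0.055 for Slc2a2. In hADMSCs-Exo against LFG they ran from -0.047 to 0.52 for Slc2a2, -0.82 to 0.37 for Pklr and -0.28 to 0.036 for Foxo1. Library totals moved the median of all genes from -0.07 to -0.27 for REG against LFG, and, for hADMSCs-Exo, from -0.06 to -0.18 against LFG and from 0.01 to 0.07 against REG. The cause of these moves was not tested.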
